A study of Mus musculus with 4 samples.

Results

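The 10 genes followed here write, copy, read or remove methyl groups on DNA: Uhrf1, Uhrf2, Dnmt1, Dnmt3a, Dnmt3b, Dnmt3l, Tet1, Tet2, Tet3 and Tdg. A probe set, the unit of measurement on this array, was taken when its platform gene symbol was exactly 1 of the 10 names. This gave 22 probe sets for 9 genes, out of 18193 genes with a probe set of their own. Tdg had no probe set to itself, since the 3 that name it also name its pseudogenes, and it was not read. Of the 22 probe sets, 16 had a mean over all arrays at or above the low-value threshold (log2 5.08) and were tested, and these cover 8 genes. The 6 others, among them every probe set of Tet1, are given as values only.

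The RNA came from bronchoalveolar stem cells (BASCs), isolated from lungs of ICR mice aged 4 to 6 weeks. They were sorted for CD34 and Sca-1 and against CD31 and CD45. Sorted cells were first plated on a feeder layer of irradiated fibroblasts from mouse embryos. For the established cells the paper gives differing accounts: its results name dishes coated with collagen, its methods continued passage on feeders. Which held for the arrayed cells is not stated, and any share of feeder RNA was not tested. BASCs are cells at the junction of airway and alveoli that can give rise to both airway and alveolar epithelium. The 2 control arrays are called wild type by the study, and neither a control virus nor selection is stated for these arrays. The 2 Myc-depleted arrays hold cells that received lentiviral short hairpin RNA against c-Myc and were then kept under puromycin for several generations, so infection and selection cannot be told apart from depletion. The hairpin used for the arrays is not stated, nor is it said that replicates were separate cultures. The spread behind each limma p-value is therefore that of 2 arrays per group, moderated by limma with the spread over all tested probe sets. This spread could be technical. As the RNA was extracted from bulk cells, fewer cells of a type and less RNA per cell cannot be told apart.

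Myc itself, the targeted transcription factor, read 9.21 and 9.69 on the control arrays and 8.35 and 8.50 on the Myc-depleted arrays. The depleted arrays thus held 49.2% of the control level (difference -1.02 on the log2 scale, SE 0.21, limma adjusted p = 0.363). Sftpc and Scgb1a1, the pair of markers that define BASCs, were under the threshold. So were 9 of 13 epithelial genes in all, and so was the sort marker Cd34, while Sca-1 has no probe set of its own here. The markers sorted against, Pecam1 and Ptprc, were also under the threshold, whereas 10 of 11 fibroblast genes were above it. The mean linear level of those 10 fibroblast genes, on the log2 scale, was 13.2 and 13.4 on control and 13.4 and 13.2 on Myc-depleted arrays. For 4 of 6 leukocyte genes above the threshold it was 7.92 and 7.46 against 7.40 and 8.15. For 5 smooth muscle genes it was 12.5 and 12.4 against 11.9 and 12.3, and the part of these cells in the values below was not tested. The arrays also differed in how evenly RNA was read along its length. Bacterial poly-A RNAs are added as spike-ins before labelling, and their signal at the 3′ end minus that at the 5′ end, over 7 probe set pairs, was low on control 1 (1.91) and Myc-depleted 2 (1.80) and high on control 2 (3.09) and Myc-depleted 1 (3.58). It therefore cut across the groups, and differences are given below within both the low and the high pair of arrays where it touches a result.

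In mammals DNA is methylated mainly at cytosines of CpG dinucleotides. When DNA is replicated, UHRF1 recognises sites methylated on 1 strand and recruits DNMT1, which copies the mark onto the new strand. DNMT3A and DNMT3B place new marks, helped in germ cells by the catalytically inactive DNMT3L. The TET enzymes oxidise methylcytosine, and TDG removes the oxidised bases so that they can be replaced by unmodified cytosine. Transcripts of Uhrf1 and Dnmt1 are known to be most abundant in dividing cells.

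For maintenance methylation, the brighter Uhrf1 probe set and all 3 Dnmt1 probe sets were lower on both Myc-depleted arrays than on both controls, while the brighter probe set of Uhrf2, the paralog of Uhrf1, was higher. The other probe sets of Uhrf1 and Uhrf2 had mean differences of the same sign, but their groups overlapped. The de novo methyltransferase genes stood a little higher or near the control level, and the Tet genes showed no common direction. None of these differences passed the adjusted threshold. By limma with Benjamini-Hochberg adjustment over 27022 probe sets, 0 of 16 member probe sets were called (adjusted p from 0.292 to 0.998), as were 0% of all tested. The methods' ANOVA called 0 after the same adjustment. At the threshold the methods use, an unadjusted p under 0.05 and a fold beyond 2, that ANOVA as re-run here called 207 of 27022 probe sets (0.766%) and 0 members. This is not the study's own count, which followed a different background filter. At an unadjusted p under 0.05 limma gave 3 member probe sets lower, against 4.46% of all tested, and 2 higher, against 5.63%. Both directions together make 5 of 16, against 10.1% of all tested, and in limma 0 of 16 also differed by more than 2-fold, against 1.17%. The 2 groups did not overlap for 5 members in the lower direction, against 18.5% of all tested, and for 5 in the higher direction, against 22.5%. Together these are 10 of 16, against 41.1%. The median difference was 0.00 over the 16 member probe sets and 0.00 over all tested, with 8 members negative and 8 positive.

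**Figure D1:**
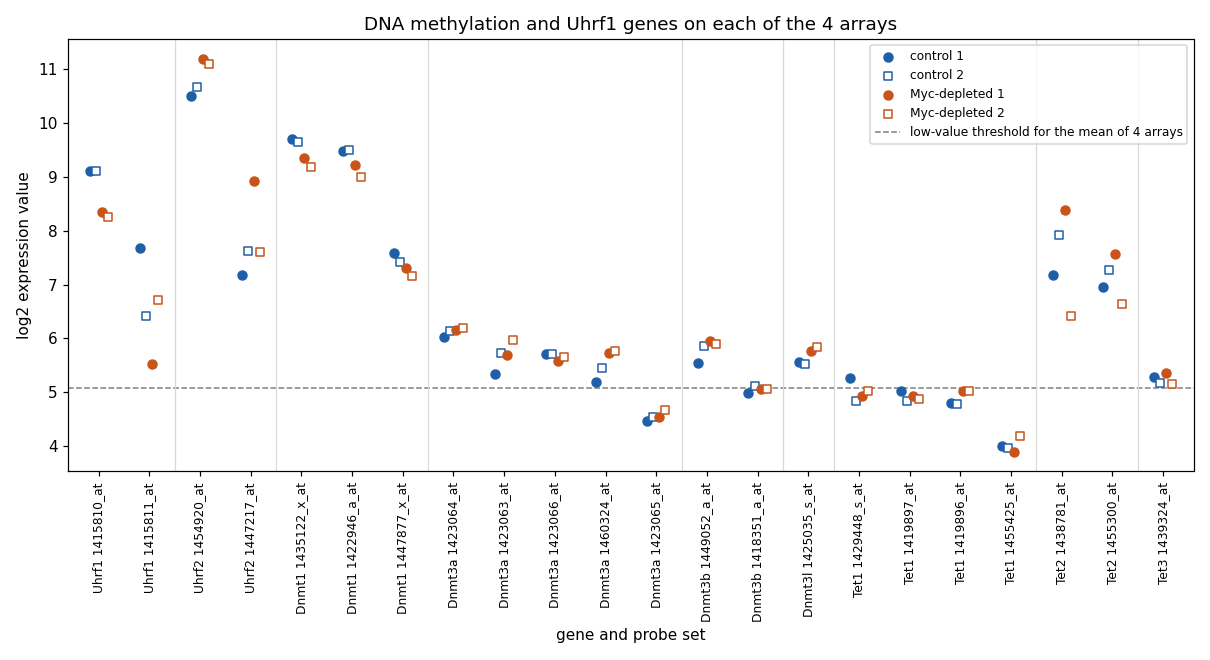
Log2 expression value (vertical axis) of the 22 probe sets of the DNA methylation and Uhrf1 genes on each of the 4 arrays, controls in blue and Myc-depleted in orange, replicate 1 as filled circles and replicate 2 as open squares; the dashed line is the low-value threshold. The first Uhrf1 probe set lies at 9.10 and 9.11 on control and at 8.34 and 8.26 on Myc-depleted arrays, the first Uhrf2 probe set lies higher on both Myc-depleted arrays, and the Tet2 probe sets separate the 2 Myc-depleted arrays from each other.

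Uhrf1 was read by 2 probe sets. The brighter one (1415810_at) had a value of 9.10 on control 1, 9.11 on control 2, 8.34 on Myc-depleted 1 and 8.26 on Myc-depleted 2. The controls were nearly equal, both Myc-depleted arrays lay 0.77 or more below them, and the groups did not overlap. The difference was -0.81 (SE 0.11, 95% interval -1.12 to -0.50), which left 57.1% of the control level (limma adjusted p = 0.292). A share of 1.37% of all tested probe sets had a more negative difference.

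The second Uhrf1 probe set (1415811_at) had a similar mean difference but a far wider spread. It read 7.68 on control 1, 6.41 on control 2, 5.53 on Myc-depleted 1 and 6.71 on Myc-depleted 2, so the groups overlapped, with Myc-depleted 2 above control 2. The difference was -0.93 (SE 0.62, 95% interval -2.65 to 0.80, limma adjusted p = 0.701), and it was -1.56 without control 2 and -0.29 without control 1. The spread followed the spike-in value, whose part in it was not tested. Between the 2 arrays with a low spike-in value this probe set differed by -0.97, and between the 2 with a high one by -0.89. The same comparisons of the first probe set gave -0.85 and -0.77. With the spike-in value as a covariate, a choice known from an earlier analysis of these data that leaves 1 residual degree of freedom, both Uhrf1 probe sets were called by limma (-0.81, adjusted p = 0.00820, and -0.78, adjusted p = 0.0254), as were 3240 of 27022 probe sets.

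Uhrf2 encodes a protein built like UHRF1 that also binds methylated DNA but is known to be a poor substitute for it in maintenance. Its brighter probe set (1454920_at) read 10.50 and 10.67 on the controls and 11.19 and 11.09 on the Myc-depleted arrays. The groups stood 0.42 apart. The difference was 0.55 (SE 0.13, 95% interval 0.20 to 0.91), or 147% of control (limma adjusted p = 0.386). The other Uhrf2 probe set (1447217_at) read 7.18, 7.62, 8.93 and 7.60 in the same order of arrays, so that only Myc-depleted 1 stood out and Myc-depleted 2 lay just under control 2. It differed by 0.86 (SE 0.51, limma adjusted p = 0.656), by 0.20 without Myc-depleted 1 and 1.53 without Myc-depleted 2, and by 0.42 between the arrays with low and 1.30 between those with high spike-in values. Both Uhrf2 probe sets were called by limma with the spike-in covariate (0.54 and 0.74, adjusted p = 0.0252 and 0.0262).

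The paralogs can also be set against each other within each array. The log2 value of the brighter Uhrf1 probe set minus that of the brighter Uhrf2 probe set was -1.40 and -1.56 on the controls and -2.85 and -2.83 on the Myc-depleted arrays. As levels of different probe sets are not on a common scale, only the change of this value has a meaning. It moved by -1.36, a 2.57-fold shift of Uhrf1 relative to Uhrf2, while it differed by 0.16 between the controls and by 0.02 between the Myc-depleted arrays. No test was run on it. The other probe sets of Uhrf1 and Uhrf2 were left out of this value, and the groups of both overlapped. Those of Uhrf1 and Uhrf2 differed by 1.27 and 0.44 between the controls and by 1.19 and 1.33 between the Myc-depleted arrays. The steadiness between replicates thus holds for the brighter pair only.

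Dnmt1, the maintenance methyltransferase gene, had 3 probe sets and all were lower on both Myc-depleted arrays. The brightest (1435122_x_at) read 9.70 and 9.65 on the controls and 9.35 and 9.17 on the Myc-depleted arrays. The next (1422946_a_at) read 9.48 and 9.50 against 9.22 and 9.0. The dimmest (1447877_x_at) read 7.59 and 7.41 against 7.30 and 7.15. In each of them Myc-depleted 2 was the lowest of the 4 arrays, and the groups did not overlap.

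The differences of the 3 Dnmt1 probe sets were -0.42 (SE 0.13), -0.38 (SE 0.13) and -0.27 (SE 0.14), which correspond to 75%, 77.1% and 82.7% of the control level. Their adjusted p in limma was 0.447, 0.491 and 0.599. They read the same transcripts and are not independent of one another. The brightest and the dimmest carry the suffix that marks probes with possible matches to other transcripts. The Dnmt1 probe sets were also lower within both spike-in pairs, by -0.53, -0.48 and -0.44 between the arrays with low and by -0.30, -0.28 and -0.11 between those with high values. On the same array, the brighter Uhrf1 probe set was displaced further than the brightest Dnmt1 probe set. The value of the first minus the second was -0.60 and -0.55 on the controls and -1.01 and -0.91 on the Myc-depleted arrays. This shift of -0.39 was not tested. The second Uhrf1 probe set was left out of it. Between Myc-depleted 2 and control 2 that probe set differed by 0.30, against -0.48 for the brightest Dnmt1 probe set. In the other pairs of a Myc-depleted and a control array it was the more negative.

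**Figure D2:**
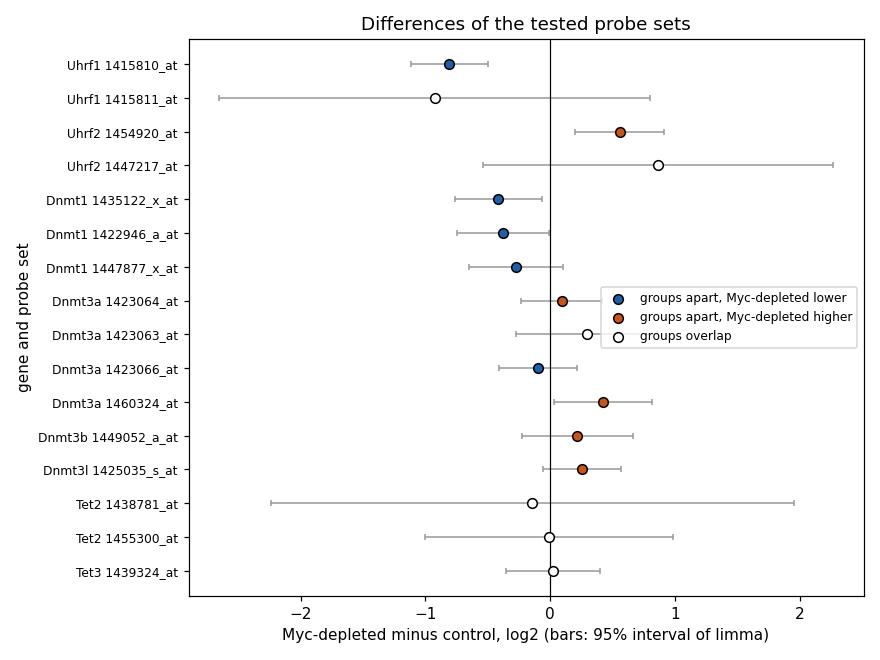
Difference between Myc-depleted and control arrays (horizontal axis, log2) of the 16 tested member probe sets, with the 95% interval of limma as bars and 2 arrays per group; filled points mark probe sets whose groups did not overlap. Uhrf1 and Dnmt1 lie left of 0 and Uhrf2 right of it, and the intervals are widest for the second Uhrf1 and Uhrf2 probe sets and for Tet2.

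Promoter sequences of the members were examined for letters bound by MYC with its partner MAX and by the E2F factors, which drive genes of S phase. The windows run from 250 bases before to 50 bases after each annotated start in RefSeq (mouse assembly GRCm38.p6), and 17 such windows covered the 10 genes. The E-box CACGTG, which reads the same on both strands, was found in 3 of 17 windows and in 7.15% of all 32851 windows. The E2F letters TTTGGCGC or TTTCGCGC, searched on both strands, were found in 2 of 17 windows and in 0.813% of all windows, and no match overlapped another. The 2 windows belong to Uhrf1 and Dnmt1, the members that were lower, while the E-box stood in windows of Dnmt3a, Dnmt3l and Tdg. For the S phase genes described below, 10 of 34 windows held the E2F letters, against the same 0.813% of all windows. Counted by gene, this was 10 of 31 with a window. A match describes letters only, and its absence says nothing of binding elsewhere. The following stretches of 30 bases, from genes read here, are shown because they hold these letters upstream of the start. They run 5′ to 3′ on the strand of the gene, with the match in capitals.
Uhrf1, chr17:56304117-56304146, plus strand, match 185 bases before the start: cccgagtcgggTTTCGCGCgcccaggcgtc
Dnmt1, chr9:20952824-20952853, minus strand, match 219 bases before the start, on the opposite strand: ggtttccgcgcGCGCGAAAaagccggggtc
Dnmt3a, chr12:3891652-3891681, plus strand, match 80 bases before the start: tccagtggggccCACGTGacctggagttct
Dnmt3l, chr10:78049786-78049815, plus strand, match 44 bases before the start: cactcctcccctCACGTGctgggctcctta
The Dnmt1 window also held TTTGGCGC 33 bases after the start. The Tdg window held its E-box 28 bases before the start and is not printed, as Tdg was not read. The Uhrf1 match lies in the second of 2 windows, and that of Dnmt3a in the third of 3.

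The de novo methyltransferase Dnmt3a had 5 probe sets, which did not share a direction. The 4 tested ones differed by 0.09, 0.29, -0.10 and 0.42. The largest of these differences belonged to 1460324_at, which read 5.20 and 5.45 on the controls and 5.74 and 5.76 on the Myc-depleted arrays (SE 0.14, limma adjusted p = 0.469). Its groups did not overlap. The brightest Dnmt3a probe set (1423064_at) read 6.03, 6.15, 6.16 and 6.20, and its groups stood 0.01 apart. The probe set 1423066_at was lower on the Myc-depleted arrays, at 5.58 and 5.65 against 5.71 on both controls. The fifth, 1423065_at, lay under the threshold at 4.46, 4.55, 4.55 and 4.67. All 5 had means under log2 6.16, the threshold of the stricter filter.

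Dnmt3b, the other de novo enzyme, read 5.54 and 5.87 on the controls and 5.95 and 5.89 on the Myc-depleted arrays (1449052_a_at, difference 0.22, SE 0.16, limma adjusted p = 0.730). Its groups stood 0.03 apart, less than the controls differed from each other. Its second probe set lay under the threshold (4.98, 5.12, 5.06 and 5.07). Dnmt3l, the germ cell cofactor, read 5.57 and 5.52 against 5.76 and 5.84 (1425035_s_at, difference 0.25, SE 0.11, limma adjusted p = 0.565). Both Myc-depleted arrays were above both controls by at least 0.19, at a level near the threshold.

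Tet2, an oxidase of methylcytosine, had the largest disagreement between replicates among the members. Its probe set 1438781_at read 7.17 on control 1, 7.92 on control 2, 8.39 on Myc-depleted 1 and 6.41 on Myc-depleted 2. The Myc-depleted arrays were the highest and the lowest of the 4 and differed 3.95-fold, a gap exceeded by 0.881% of all tested probe sets. The mean difference between the groups was -0.14, with a 95% interval of -2.24 to 1.95 (limma adjusted p = 0.975). The second Tet2 probe set (1455300_at) kept the same order at 6.96, 7.27, 7.56 and 6.65 (difference -0.01, SE 0.36). Both followed the spike-in value rather than the group, and its part was not tested. Between the arrays with low values they differed by -0.76 and -0.31, and between those with high values by 0.48 and 0.30. Whether Tet2 differs between the groups was thus not detectable on these arrays, and without Myc-depleted replicate 2 the first probe set differed by 0.85 and without Myc-depleted replicate 1 by -1.14.

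**Figure D3:**
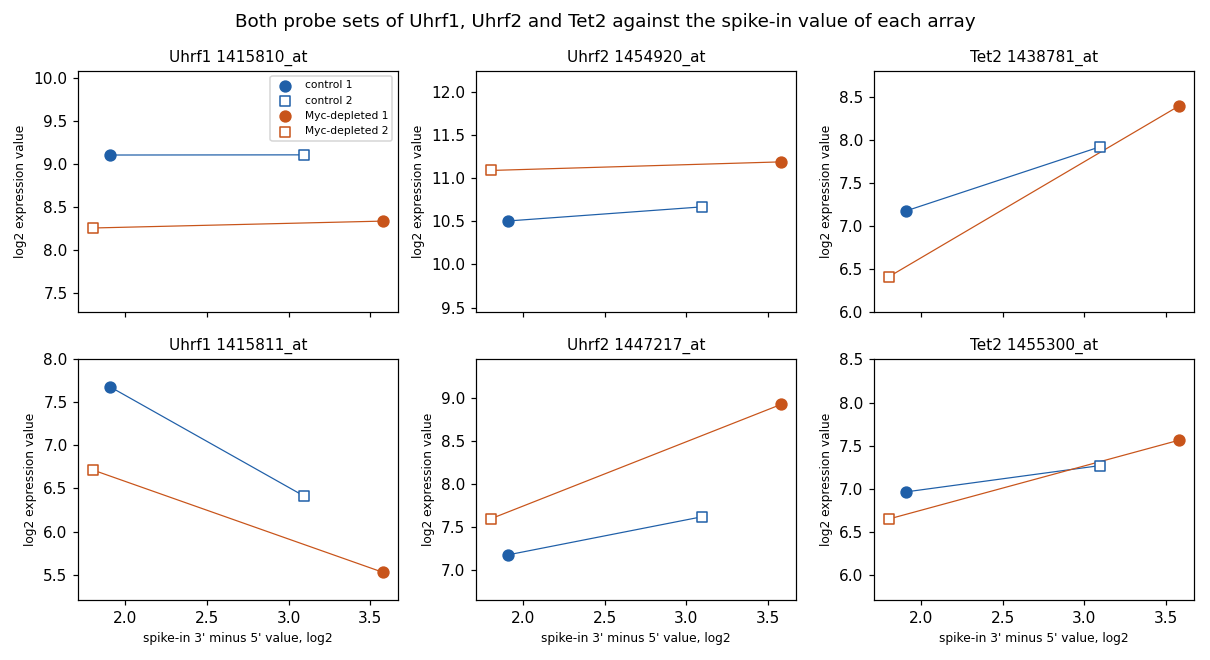
Log2 expression value (vertical axis, each panel spanning the same number of log2 units) of both probe sets of Uhrf1, Uhrf2 and Tet2 against the 3′ minus 5′ spike-in value of each array (horizontal axis, log2); lines join the 2 arrays of a group, blue for control and orange for Myc-depleted. The Uhrf1 lines stay apart in both panels with Myc-depleted lower, the Uhrf2 lines stay apart with Myc-depleted higher, and the Tet2 lines run together at high spike-in values and apart at low ones.

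Tet1 and Tet3 were near or under the threshold. The 4 Tet1 probe sets had means from 4.02 to 5.02 and differences from -0.06 to 0.23. The highest of these differences came from 1419896_at, with 4.80 and 4.79 on the controls and 5.02 and 5.03 on the Myc-depleted arrays. The single Tet3 probe set (1439324_at) read 5.29 and 5.18 against 5.35 and 5.15, with the groups overlapping and a difference of 0.02 (SE 0.14, 95% interval -0.36 to 0.40, limma adjusted p = 0.982).

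Genes of DNA replication and division were lower along with Uhrf1 and Dnmt1. All 38 tested S phase genes were negative, with a median of -0.44 where all 12589 genes had 0.02, and 26 had groups that did not overlap in the lower direction and 0 in the higher, against 20.8% and 26.6% of all genes. All 19 genes of mitosis were negative as well (median -0.56). At an unadjusted p under 0.05 limma gave 14 and 9 of them lower, against 5.23% of all genes, and 0 were called after adjustment, as were 0% of all genes. The catalytic subunit gene of the priming polymerase, Pola1, differed by -0.85, Ccne2, a cyclin of S phase entry, by -0.70, Pola2 by -0.67 and the helicase subunit gene Mcm3 by -0.55. Among the genes of mitosis the smallest p values belonged to Bub1 (-0.92), Kif23 (-0.80), Top2a (-0.68) and Ndc80 (-0.53). Of the 38 S phase genes 3 were more negative than Uhrf1 and 23 more negative than Dnmt1.

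The S phase median can be set beside the brighter Uhrf1 and the brightest Dnmt1 probe set in each pair of arrays. Gene names in these comparisons stand for those probe sets. Between the arrays with low spike-in values it was -0.46, against -0.85 for Uhrf1 and -0.53 for Dnmt1. Between those with high values it was -0.48, against -0.77 and -0.30. Uhrf1 was thus below the median in both matched pairs, and Dnmt1 lay on either side of it. The other pairs mix low and high arrays. Between Myc-depleted 2 and control 2 the S phase median was -0.17, whereas Uhrf1 differed by -0.85 and Dnmt1 by -0.48. Between Myc-depleted 1 and control 1 the S phase median was -0.73, against -0.77 for Uhrf1 and -0.35 for Dnmt1. The S phase median also differed between arrays of a group, by -0.24 from control 1 to control 2 and by 0.29 from Myc-depleted 1 to Myc-depleted 2. The brighter Uhrf1 probe set moved by 0.00 and -0.08 in those comparisons. The second Uhrf1 probe set moved by -1.27 and 1.19 in them, with the same signs as the S phase median. In the mixed pairs this second probe set differed by 0.30 between Myc-depleted 2 and control 2. Between Myc-depleted 1 and control 1 it differed by -2.15. The share of dividing cells in each culture was not measured on the arrays, and its part in the values of Uhrf1 and Dnmt1 was not tested.

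Over the 4 arrays, the gene whose values lay closest to those of Dnmt1 was Ahcy, which clears the S-adenosylhomocysteine that methyltransferases leave behind. The likeness was measured as the Euclidean distance between array values centred on the mean of each gene, over 12588 other genes. Ahcy read 10.81 and 10.77 on the controls and 10.47 and 10.27 on the Myc-depleted arrays, at a distance of 0.02 from Dnmt1. Pprc1, Aftph, Ints8 and Slc6a6 followed, at 0.04. The genes nearest to Uhrf1 were Acot7 (distance 0.04), Tubb2b (0.05), Mamdc2, Armcx4 and Lrrc8c. With 4 arrays in 2 groups, many genes have such a pattern, and the ranking is only a description.

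The list of partners holds genes of proteins known to work with UHRF1 and DNMT1, and also Cdca7l, included as a paralog of Cdca7. Of its 15 tested genes, 8, Cdca7l among them, stood lower on both Myc-depleted arrays without overlap, against 20.8% of all genes. In the higher direction it was 1, against 26.6%. The 8 include Kdm1a (-0.13) and Trim28 (-0.04), whose differences were small. Of the 15 tested genes 9 were negative (median -0.07, but -0.13 without control 1 or Myc-depleted 1), and limma gave 3 lower and 0 higher at an unadjusted p under 0.05, against 5.23% and 6.96% of all genes. The chromatin remodeller gene Hells, needed for methylation of repeats, read 10.98 and 10.71 on the controls and 10.03 and 9.78 on the Myc-depleted arrays. Its 3 probe sets differed by -0.94 to -0.37. Cdca7l, a paralog of Cdca7, differed by -0.97 (SE 0.12, limma adjusted p = 0.263) and Cdca7, the partner of HELLS, by -0.49. The ligase gene Lig1, whose product binds UHRF1, read 9.62 and 9.61 against 9.18 and 9.13 (difference -0.46, SE 0.11, limma adjusted p = 0.389), and Pcna, the replication clamp, differed by -0.47. The deubiquitinase gene Usp7, which stabilises both proteins, had 7 probe sets between -0.33 and 0.15. Dppa3, which restrains UHRF1 in oocytes, was under the threshold.

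Genes that supply methyl groups leaned to lower values on the Myc-depleted arrays. Of 6 tested genes 5 were negative, with a median of -0.37. Ahcy differed by -0.42 (SE 0.13), the methionine synthase gene Mtr by -0.36 (SE 0.12), and the serine hydroxymethyltransferase genes Shmt2 and Shmt1 by -0.47 and -0.37. At an unadjusted p under 0.05 limma gave 2 of the 6 lower and 0 higher, against 5.23% and 6.96% of all genes. The median of 7 genes from families of methylated DNA readers was 0.09. For these 7 it was 0.14 without control 1, 0.18 without Myc-depleted 2 and -0.0075 with the mean of all probe sets of a gene. At an unadjusted p under 0.05 limma gave 1 of them higher, against 6.96% of all genes, Zbtb4 (9.14 and 9.20 against 9.62 and 9.51, difference 0.40, SE 0.12). Mbd1 differed by 0.17, Mbd3 by 0.09 and Zbtb38 by 0.09. The 5 tested CXXC domain proteins, which bind unmethylated CpG, had a median of 0.05, or -0.039 without Myc-depleted 1, and 0 at an unadjusted p under 0.05. Kdm2b (0.29) and Fbxl19 (-0.15) were farthest from 0.

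Partners of demethylation and base excision repair had a median of 0.01 over 15 genes, with 1 higher, 6.67% of them against 6.96% of all genes, and 0 lower at an unadjusted p under 0.05, a share near the background. Without overlap of the groups 7 of the 15 stood higher, against 26.6% of all genes, and 2 stood lower, against 20.8%. Without Myc-depleted 2 the median was 0.12, and without control 2 it was 0.10. The gene counted was Idh1, a source of the 2-oxoglutarate that TET enzymes consume, at 11.47 and 11.71 on the controls and 12.25 on both Myc-depleted arrays (difference 0.67, SE 0.14, limma adjusted p = 0.368). The glycosylase genes Neil3, Neil1 and Smug1 differed by -0.37, 0.45 and 0.33. In every list described here limma called 0 genes after adjustment.

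**Figure D4:**
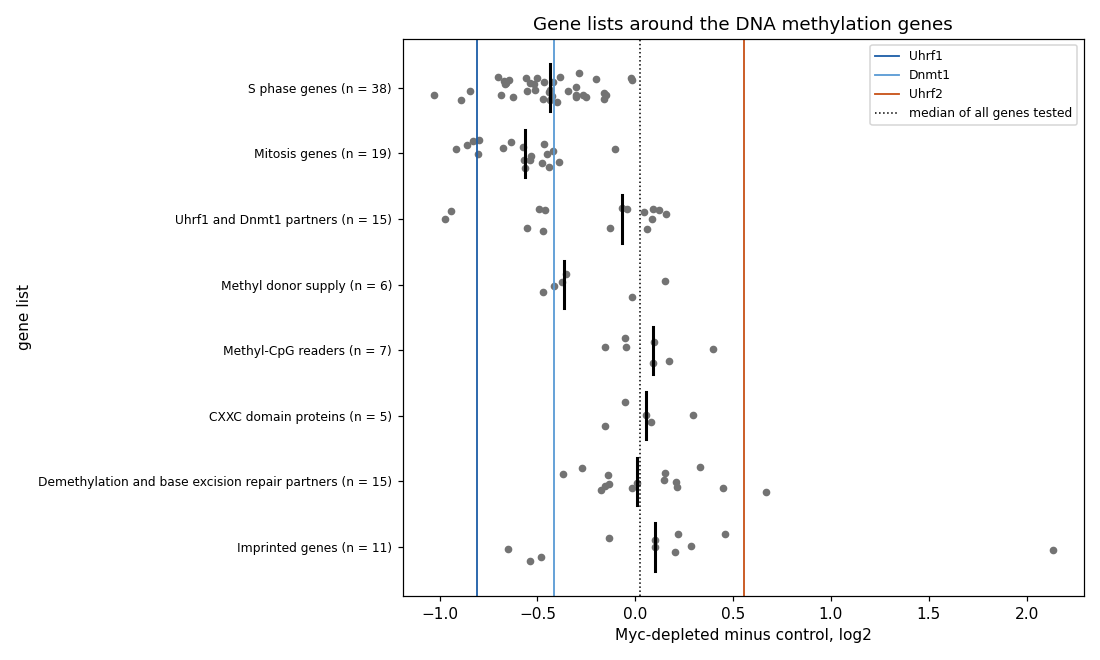
Difference between Myc-depleted and control arrays (horizontal axis, log2) of every tested gene in 8 gene lists, 1 point a gene, with the median of each list as a black bar and coloured lines at the values of Uhrf1, Dnmt1 and Uhrf2 and a dotted line at the median of all genes tested. S phase and mitosis genes lie left of 0 with medians of -0.44 and -0.56, and Uhrf1 at -0.81 lies beyond most of them.

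Germline genes known to be silenced by DNA methylation were mostly low on all arrays. Of 20 germline genes with a probe set, 16 were under the threshold and 4 were tested. The reproductive homeobox gene Rhox5 stood lower on the Myc-depleted arrays, at 5.0 and 5.24 against 6.95 and 6.86 on the controls (difference -1.79, SE 0.14, limma adjusted p = 0.215). Brdt, Asz1 and Mov10l1 differed by 0.23, 0.11 and 0.08. Of 11 tested imprinted genes 7 had positive differences (median 0.10, but -0.015 without Myc-depleted 1 and 0.24 without control 2 or Myc-depleted 2), and 2 reached an unadjusted p under 0.05 in the higher direction, against 6.96% of all genes. The paternally expressed gene Mest read 6.36 and 6.63 on the controls and 8.27 and 8.99 on the Myc-depleted arrays (difference 2.13, SE 0.29, limma adjusted p = 0.292), and the growth factor receptor adaptor gene Grb10 read 12.89 and 12.82 against 13.31 on both. Plagl1 and Igf2 differed by -0.54 and -0.48. DNA methylation itself was not measured on these arrays.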

How the data were processed

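Total RNA of 2 control and 2 Myc-depleted BASC samples was hybridised to Affymetrix mouse arrays. The deposited values are log2 expression values, 1 per probe set and array. The authors imported scanner files into Partek (version 6.4 in the submitters' processing notes). Their methods name Robust Multichip Average, the notes name GCRMA, and which of these made the values was not settled. This matters most for low values, whose differences are compressed by background.

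Of 45101 probe sets, 64 are array controls and were not used, and those with a mean under the 40th percentile (log2 5.08) were not tested, which left 27022. Gene names came from the platform annotation. A list gene was represented by its brightest tested probe set. Groups were compared with limma 3.58.1 in R 4.3.3 (lmFit, eBayes, 2 residual degrees of freedom), which recovered the sizes of known differences in simulated arrays but called 0 of 200 after adjustment, even at a log2 difference of 2. Precision is limited by having 4 arrays, and no exact permutation test of 2 against 2 arrays can pass 0.05. The methods' ANOVA, run per probe set with group as its factor and read both at the methods' threshold and after adjustment, was an alternative, beside others of filter, scaling, floor, variance model, block, covariate and left-out arrays. Named genes are all members, Myc, up to 4 genes with the smallest p per list, fixed partners of Uhrf1, genes that a list count rests on and genes with the nearest pattern. The members, lists and rules were chosen with earlier results of these data known. Same-numbered arrays are not said to be paired.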

Additional observations from a re-analysis of the deposited data

How the results depend on the processing

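The adjusted call count of the members stayed at 0 under every alternative run except the spike-in covariate, where it was 4, both probe sets of Uhrf1 and both of Uhrf2. That covariate also gave Myc a difference of -1.04 (limma adjusted p = 0.0158). It gave 4 member probe sets lower and 4 higher at an unadjusted p under 0.05, and the cause was not tested. With the replicate number as a block (replicate block) 1 member was lower and 0 were higher at that threshold. The replicate 2 minus 1 differences of the groups correlated at -0.77 across 27022 probe sets, and with crossed pairs, added after seeing the data, 0 members and 21 probe sets were called. The stricter filter, which tests 9 member probe sets, left 3 lower and 1 higher at an unadjusted p under 0.05. Without overlap it left 4 lower and 1 higher. With the mean of all probe sets of a gene, 8 genes remained to count. Of these, 2 were lower and 1 higher at that threshold, and 2 were lower and 4 higher without overlap. Leaving out 1 array at a time gave 1 to 4 lower and 0 to 2 higher at an unadjusted p under 0.05, 5 to 8 lower and 5 to 9 higher without overlap, and a Myc difference from -1.26 to -0.79. The count of 1 lower came without control 1, control 2 or Myc-depleted 2, the count of 0 higher without control 1 or control 2, the 8 without Myc-depleted 1 and the 9 without Myc-depleted 2. The lone array of a group is then assumed to vary like the other group. A count without overlap can only stay or rise when an array is left out, and the fit changes as well. The left-out counts are thus not comparable with the shares of all tested probe sets given above for 4 arrays. Over all probe sets, 2726 had an unadjusted p under 0.05, against 1009 with the replicate block, 8099 with the spike-in covariate, 5655 with crossed pairs, 705 without control 1 and 936 without control 2, and gene means called 22 genes. Of the recomputed list medians, 191 stayed within the spread between replicates and 18 moved beyond it, none of them of the S phase or mitosis genes, which ran from -0.58 to -0.30 and from -0.71 to -0.38. The others ran from -0.13 to -0.047 for the partners, -0.0075 to 0.18 for the readers, -0.039 to 0.12 for CXXC proteins, -0.020 to 0.12 for demethylation, -0.38 to -0.27 for methyl donors, 0.044 to 0.11 for germline and -0.015 to 0.24 for imprinted genes. Of the 16 member differences, 13 never changed sign. The exceptions were Tet2 1438781_at (-1.14 to 0.85 with an array left out), Tet2 1455300_at (-0.47 to 0.45, and 0.010 after quantile normalization) and Tet3 (-0.080 to 0.12). The second Uhrf1 probe set ran from -1.56 to -0.29 and that of Uhrf2 from 0.20 to 1.53, with their lowest and highest values where 1 array was left out. The brighter Uhrf1 probe set ran from -0.85 to -0.77, that of Uhrf2 from 0.47 to 0.64 and the brightest of Dnmt1 from -0.51 to -0.33. The means over all tested probe sets of these genes, which are not values of these probe sets, were -0.87, 0.71 and -0.36.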
